A study of Rattus norvegicus with 9 samples.

Results

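Rpl3 (ENSRNOG00000016896) and Rpl3l (ENSRNOG00000014641) are 2 of the 35843 genes in a table of FPKM values from hearts of adult male Sprague-Dawley rats. The pair was taken by gene name and was chosen by its levels in the 3 groups, so those levels are a description with no test. Total RNA came from the left ventricle at day 28, with poly-A selected libraries and 3 biological replicates to a group. Each sample title names 2 numbered parts, and whether these are pieces, rats or runs is not stated. Each sample is counted and called 1 rat here. Group Sham had the chest opened without ligation, and group MI had the left anterior descending coronary artery tied off; both received saline by daily gavage. Group MI + DAPA (1st d), called DAPA here, had the same ligation and received dapagliflozin, an inhibitor of the glucose transporter SGLT2, at 1 mg/kg by daily gavage from the first day. The study's methods say that molecular work mainly used the border of the infarct with the scar taken away, and the corresponding wall in group Sham. For the sequencing itself the study names infarct myocardium of the ligated groups and normal myocardium of group Sham, so which zone these libraries hold is not settled. The labels name the tissue only as heart.

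Rpl3 encodes ribosomal protein uL3, a core protein of the large ribosomal subunit whose extended loop reaches towards the peptidyl transferase centre, where peptide bonds form. Nearly every cell uses Rpl3. Rpl3l encodes a paralog made in heart and skeletal muscle, where it takes the place of Rpl3 in part of the ribosomes. Rpl3l is known to be lowered, with Rpl3 raised, in muscle that grows or regenerates. Tnnt2, the cardiac troponin T gene, marks cardiomyocytes, and Col1a1, the alpha 1 chain of type I collagen, marks matrix-forming fibroblasts.

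The 250 bases before each transcription start are shown because Rpl3 is used in nearly every cell and Rpl3l in striated muscle. They are RefSeq sequence of the GRCr8 build, printed in the direction of transcription. Rpl3 lies at chr7:113507991-113508240 on the minus strand and Rpl3l at chr10:14258196-14258445 on the plus strand. Capitals mark matches on either strand to 7 short motifs. These were the TATA forms TATAAA and also TATATA, the GC box GGGCGG, the CAAT box CCAAT, the E-box core CANNTG, the M-CAT element CATTCC and the GATA site GATAAG.
Rpl3: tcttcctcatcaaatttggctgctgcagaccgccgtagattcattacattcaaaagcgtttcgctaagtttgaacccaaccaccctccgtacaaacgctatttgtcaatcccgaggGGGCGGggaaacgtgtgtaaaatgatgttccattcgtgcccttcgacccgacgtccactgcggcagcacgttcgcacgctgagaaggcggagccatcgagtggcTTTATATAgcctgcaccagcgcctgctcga
Rpl3l: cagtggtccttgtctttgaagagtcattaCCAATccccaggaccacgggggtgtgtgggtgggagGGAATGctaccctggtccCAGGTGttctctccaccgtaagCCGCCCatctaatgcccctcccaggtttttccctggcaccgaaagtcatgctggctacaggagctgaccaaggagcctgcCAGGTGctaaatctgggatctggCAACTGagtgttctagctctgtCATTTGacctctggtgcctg

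The Rpl3 window held overlapping matches to TATAAA on the reverse strand and to TATATA, which begin 30 and 28 bases before the start. TATATA occurred in 5.4% of all 33469 promoters of this length and TATAAA in 12.9%. The Rpl3l window held neither of these. It held 4 E-box cores, against 0 in the Rpl3 window; 65.5% of promoters had at least 1 and 3.2% had 4 or more. Rpl3l also held 1 CATTCC, found in 12.1% of promoters, and 1 CCAAT, found in 34.0%. Both windows held 1 GGGCGG, found in 30.5% of promoters, and neither held GATAAG, found in 6.2%. These are matches of letters, and no binding was measured here.

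FPKM are fragments per kilobase of gene, scaled by a denominator set for each library. The low values of each gene moved in equal steps of 1 read, so that reads could be recovered. The libraries held 13601888 to 17212030. Protein-coding genes of the mitochondrial genome took 59.9% to 65.7% of these for Sham, 6.92% to 18.7% for MI and 17.1% to 31.6% for DAPA. The denominators of the deposited FPKM were 0.512 to 0.619 of the recovered reads in group Sham and 0.954 to 1.298 in the ligated groups. An FPKM here is therefore closer to a share of reads outside the mitochondrial genome than to a share of all reads.

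Rpl3, the form used in nearly every cell, stood at 149, 135 and 122 FPKM in the 3 Sham rats. Its values were 219, 234 and 208 FPKM in group MI, and 270, 233 and 153 FPKM in group DAPA. Every MI rat and every DAPA rat lay above every Sham rat. The lowest treated rat, replicate 3, was close to the highest Sham rat. Means were 135 ± 13.6 FPKM for Sham, 220 ± 12.9 for MI and 218 ± 59.97 for DAPA (mean ± SD of 3 rats).

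On log2(FPKM + 1), the limma estimate for Rpl3 was 0.70 higher in MI than in Sham (SE 0.14). It was 0.65 higher in DAPA than in Sham (SE 0.24). Between the 2 ligated groups the difference was -0.05 (SE 0.24), and the treated rats spanned the whole range of group MI. Of all 13485 genes tested in MI vs Sham, 27.1% had every MI rat above every Sham rat, and in DAPA vs Sham the share was 23.2%. These comparisons share rats and are not independent of each other.

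Rpl3l, the striated muscle form, stood at 29.0, 43.2 and 45.8 FPKM in group Sham. Group MI had 8.14, 7.52 and 19.0 FPKM. Group DAPA had 36.6, 52.9 and 26.2 FPKM. The 3 MI rats were the 3 lowest of the 9, with MI replicate 3 between the other MI rats and the lowest treated rat. The treated rats lay on both sides of the Sham rats.

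The Rpl3l values rested on 179 to 1144 reads a library, a counting error of 2.96% to 7.47%. The Rpl3 values rested on 3762 to 15618 reads, a counting error of 0.800% to 1.63%. The distance between rats of 1 group was thus mostly wider than counting error for both genes.

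**Figure D1:**
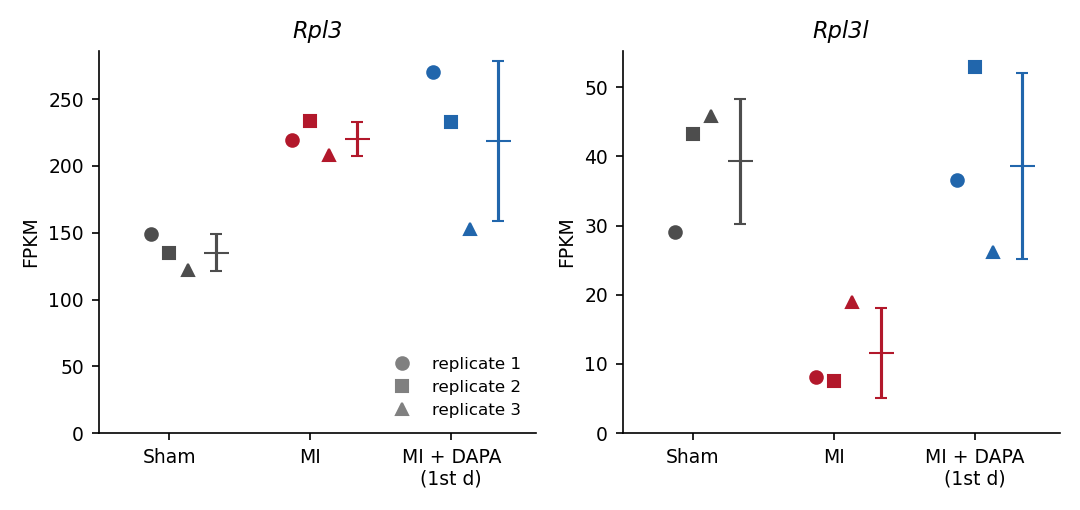
FPKM of Rpl3 (left) and Rpl3l (right) in each of the 9 rats, by group; symbols give the replicate number and bars the mean and SD of 3 rats. Rpl3 is lowest in group Sham, at 122 to 149, and Rpl3l is lowest in group MI, at 7.52 to 19.0.

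The limma difference of Rpl3l was -1.77 in MI vs Sham (SE 0.35) and 1.71 in DAPA vs MI (SE 0.39). The difference in DAPA vs Sham was -0.06 (SE 0.28). All 3 MI rats were below all Sham rats, as were those of 27.5% of the genes tested. All 3 treated rats were above all MI rats, which held for 6.63% of the 13251 genes tested in that comparison. With Benjamini-Hochberg adjustment of the limma p at 0.05, 0 genes of that comparison passed at a log2 change beyond 1 in size, while 1125 genes had an unadjusted p under 0.05.

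The scale matters for the direct comparison of MI with Sham. In CPM, with all recovered reads as the denominator and mitochondrial ones included, Rpl3l was 24.2, 34.9 and 31.5 in group Sham and 13.6, 13.2 and 30.6 in group MI. On that scale MI replicate 3 lay inside the Sham range, and the 3 treated rats, at 50.4, 68.0 and 43.6, lay above it. The median of all genes was itself 0.92 higher in MI than in Sham on log2 with that scaling, and Rpl3l lay 1.64 below this median, against 1.77 below the median with the deposited scaling. Rpl3 was higher than in Sham on every scale tried, but in CPM of the reads outside the mitochondrial genes the treated rats, at 798 to 1321, overlapped the Sham rats, at 638 to 806.

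The ratio of the paralogs does not depend on the library denominator. Rpl3 over Rpl3l in FPKM was 5.13, 3.12 and 2.66 in group Sham. It was 26.9, 31.0 and 10.9 in group MI, and 7.37, 4.40 and 5.82 in group DAPA. The MI rats were the 3 highest and did not overlap with either group. The treated rats ran from inside the Sham range to above it, with 2 of 3 above the highest Sham rat.

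On log2 the ratio was 2.58 higher in MI than in Sham (SE 0.55) and 1.87 lower in DAPA than in MI, a difference of -1.87 (SE 0.52). The treated rats were 0.71 above Sham (SE 0.36), with overlap. Rpl3l accounted for 22.6% ± 5.68 of the FPKM of the pair for Sham, 5.03% ± 2.91 for MI and 15.0% ± 3.30 for DAPA (mean ± SD of 3 rats). The size of this share depends on the gene lengths behind the FPKM, which the steps put at 3506 bases for Rpl3 and 1347 bases for Rpl3l. As a share of the reads of the pair, Rpl3l was 10.2% ± 2.90, 2.01% ± 1.21 and 6.39% ± 1.55 in the same order. RefSeq lists 6 pseudogenes of Rpl3 in the rat, none of them named in the table. How reads shared with such copies were counted is not given in the sources used here, so the level of Rpl3 is uncertain to that extent.

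**Figure D2:**
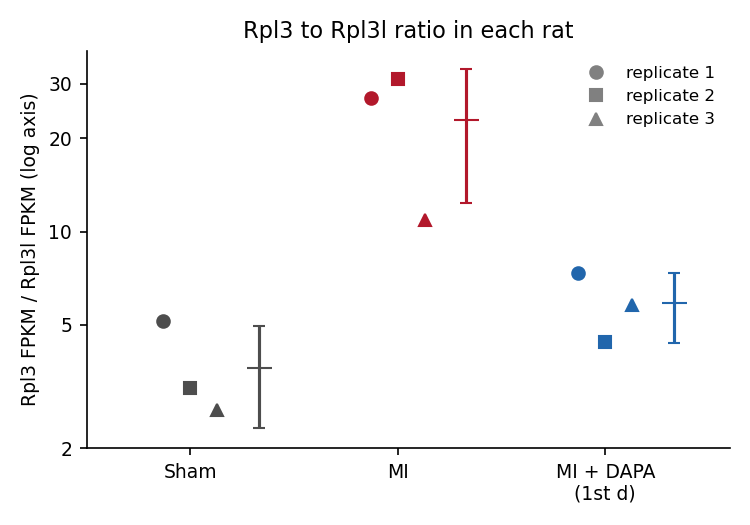
Rpl3 FPKM divided by Rpl3l FPKM in each rat on a log axis, by group; symbols give the replicate number and bars the mean and SD of 3 rats. Group MI lies at 10.9 to 31.0, above group Sham at 2.66 to 5.13 and group DAPA at 4.40 to 7.37.

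Rpl3l is made by myocytes, so its level was set beside Tnnt2. Tnnt2 stood at 2007, 2155 and 2685 FPKM in group Sham. It was 1510, 489 and 2486 FPKM in group MI and 4410, 4014 and 1890 FPKM in group DAPA. All 3 groups overlapped, and MI replicate 2 was far below every other rat. In bulk tissue, fewer cardiomyocytes and less RNA per cardiomyocyte cannot be told apart.

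Per 1000 FPKM of Tnnt2, Rpl3l was 14.5, 20.03 and 17.0 FPKM in group Sham. Group MI had 5.39, 15.4 and 7.65, and group DAPA had 8.30, 13.2 and 13.9. MI replicate 2, the rat with the least Tnnt2, reached into the Sham range, whereas the other 2 MI rats were the lowest of the 9. The treated rats lay below every Sham rat and among the MI rats. On log2 the differences were -0.99 in MI vs Sham (SE 0.46), 0.42 in DAPA vs MI (SE 0.50) and -0.57 in DAPA vs Sham (SE 0.27).

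The geometric mean of the cardiomyocyte list (24 genes found, such as Myh6, Tnnt2 and Ckmt2) gave a second yardstick. Per 1000 FPKM of it, Rpl3l stood at 206 ± 15.8 FPKM for Sham, 86.6 ± 34.3 for MI and 131 ± 10.4 for DAPA (mean ± SD of 3 rats). Both ligated groups lay below every Sham rat on this measure, by -1.32 (SE 0.33) and -0.66 (SE 0.09) on log2. The treated rats overlapped the MI rats, with a difference of 0.66 (SE 0.33). The Rpl3l FPKM of the treated rats, which overlapped Sham, came with a cardiomyocyte list at 293 ± 84.6 FPKM, against 190 ± 33.7 in group Sham and 149 ± 91.3 in group MI.

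**Figure D3:**
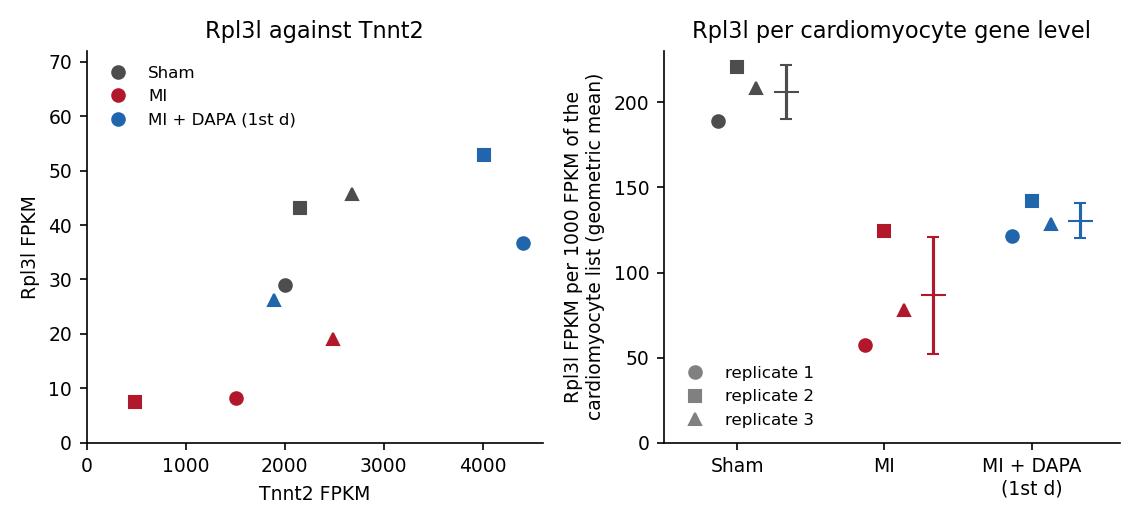
Left, Rpl3l FPKM against Tnnt2 FPKM in the 9 rats, coloured by group; right, Rpl3l FPKM per 1000 FPKM of the cardiomyocyte list's geometric mean, with mean and SD of 3 rats, and symbols giving the replicate number in both panels. The MI rats hold the 3 lowest Rpl3l values at left, and at right the treated rats (131 ± 10.4) lie below the Sham rats (206 ± 15.8) and overlap the MI rats.

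Col1a1 stood at 49.0, 13.7 and 14.3 FPKM in group Sham and at 1012, 1393 and 650 FPKM in group MI. Group DAPA had 312, 441 and 602 FPKM, each below every MI rat; 7.16% of the genes tested in that comparison were below in this way. Across the 9 rats, log2 Rpl3l had a Pearson r of 0.80 and a Spearman rho of 0.78 with Tnnt2, and an r of 0.75 over the 7 rats left without MI replicate 2 and DAPA replicate 1, the farthest in Tnnt2. After the mean of each group was subtracted, r was 0.76. Rpl3 had an r of -0.02 and a rho of 0.05 with Tnnt2, and an r of 0.24 after subtraction. Col1a1 split group Sham from the ligated rats, so no r over all rats is given for it. With group means subtracted, its r was -0.71 with Rpl3l and -0.04 with Rpl3, and that between the paralogs was 0.12. These values describe 9 rats in 3 groups, and the genes of 1 rat share a library.

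Cell-type lists moved with the groups as follows, where called means limma p under 0.05, not adjusted, together with a log2 change beyond 1 in size. In MI vs Sham 10.3% of all genes tested were called lower and 12.1% higher. Among 24 cardiomyocyte genes tested, 5 were called lower and 1 higher, with a median log2 difference of -0.33; scaled to all recovered reads, 3 were called lower and 7 higher, with a median of 0.74 beside 0.92 for all genes. The directions given for the lists are those of the deposited scaling. By sign alone, 18 of the 24 cardiomyocyte genes were lower and 6 higher on it. Ckmt2, the sarcomeric mitochondrial creatine kinase, fell by 2.59 on the log2 scale (SE 0.54), and Myh6, the alpha myosin heavy chain, fell by 2.43 (SE 0.52). Kcnj2, an inward rectifier potassium channel, rose by 1.16 (SE 0.21) from a mean of 0.297 FPKM. The summed level of the list ran from 11524 to 16652 FPKM for Sham, 3809 to 18814 for MI and 15074 to 31287 for DAPA.

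Of 14 fibroblast and matrix genes tested, 12 were called higher in MI vs Sham and 0 lower, with a median of 3.04. Pdgfra, a receptor of fibroblasts, rose by 2.81 (SE 0.19), and Col1a2 and Col3a1 rose by 4.60 (SE 0.39) and 4.53 (SE 0.39). The list summed to 1812 to 2312 FPKM for Sham, 5862 to 10074 for MI and 3717 to 6497 for DAPA. All 10 macrophage genes tested were called higher, among them the complement genes C1qb and C1qc, and the list ran from 160 to 499 FPKM in group Sham and from 1956 to 3574 in group MI. Of 9 lymphoid genes 4 were called higher, Cd4 and Jchain included. The list was 12.5 to 30.8 FPKM for Sham, 93.0 to 4052 for MI and 41.9 to 77.3 for DAPA. In group DAPA, Cd4 alone had a mean of 33.5 FPKM, out of 55.4 for the list, so the list there rests mostly on that gene.

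Of 8 endothelial genes tested 5 were called lower, Cdh5, Emcn and Tie1 among them, and the list was 477 to 779 FPKM in group Sham and 224 to 288 in group MI. Of 6 smooth muscle genes 1, Smtn, was called lower, by 1.82 (SE 0.26). The adipocyte list had only 2 genes tested, of which Fabp4, also known from capillary endothelium, was called lower and Cfd higher; Adipoq, Plin1 and Cidec were at 0 in all Sham rats. In DAPA vs MI, the comparison in which Rpl3l differed by 1.71, 4 of 24 cardiomyocyte genes were called higher and 0 lower, with a median of 1.26, where 1.11% of all genes were called lower and 0.951% higher. The 4 were Tnni3, Myl2, Ckmt2 and Csrp3, genes of cardiac troponin I, a ventricular myosin light chain, the creatine kinase above and a Z-disc protein, named after their values were seen. That count was 22 without MI replicate 3 and 0 without MI replicate 2. Col1a1 was the only 1 of 14 fibroblast genes called lower, and 4 of 8 lymphoid genes were called lower. The medians of the fibroblast, macrophage and endothelial lists were -0.51, -0.82 and 0.35. Of 3 adipocyte genes tested 1, Retn, was called higher, by 1.47 (SE 0.27). Adipoq was too low to be tested, at 0.457, 0.278 and 0.256 FPKM in group MI and 0.803, 3.54 and 5.96 FPKM in group DAPA. In DAPA vs Sham 9 of 24 cardiomyocyte genes were called higher and 2, Myh6 and Ckmt2, lower, with a median of 0.87, where 8.16% of all genes were called lower and 9.54% higher. The 2 lower calls fell to 0 with all 9 rats in 1 fit and without DAPA replicate 3. Rpl3l differed by -0.06 there. The part of these cell-type shifts in the levels of Rpl3 and Rpl3l was not tested.

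Rpl3l is also a skeletal muscle gene, so skeletal muscle markers were read as a check of the tissue. The 9 markers found summed to 25.9 to 43.2 FPKM across all 9 rats, with Tnnt3 at 12.6 to 24.0 as the largest. Pvalb was at 0 in 7 of 9 rats and Myh1 was at or below 0.230 FPKM in every rat. Of the 5 tested in MI vs Sham, 0 were called by limma, and 0 had an unadjusted p under 0.05. In DAPA vs MI, 4 were tested and 0 called, also with 0 at an unadjusted p under 0.05. Of 5 tested in DAPA vs Sham, 1, Mybpc2, was called higher, with a mean of 2.95 against 0.857 FPKM.

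The other proteins of the ribosome were compared with the pair next. Of 78 cytosolic ribosomal protein genes listed besides Rpl3 and Rpl3l, 70 were found and 68 passed the filter on low values in MI vs Sham. The 2 that did not, Rpl10a and Rpl23a, were listed at 0 in all 9 rats although nearly every cell uses them, so the table holds no measurement of them. Limma called 1 lower and 0 higher, and the median difference was -0.16. At an unadjusted p under 0.05, 18 were lower in MI and 4 higher; of all genes tested 24.4% were lower and 24.5% higher at that p. Scaled to all recovered reads, the direction turned, with 32 called higher and a median of 0.95, close to the 0.92 of all genes. Rpl3, at 0.70 (SE 0.14), had a larger log2 difference than 67 of the 68, and only Rps2 was above it, at 0.92 (SE 0.19). Rplp0 and Rpl6 lay within its SE, at 0.66 (SE 0.18) and 0.66 (SE 0.16). Rpl3l, at -1.77, was below 67 of them.

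The single ribosomal protein gene called lower was Rplp2, which encodes an acidic protein of the ribosomal stalk. It stood at 569, 356 and 675 FPKM in group Sham and at 14.9, 50.8 and 11.2 FPKM in group MI, a difference of -4.58 (SE 0.53). In group DAPA it spread from 14.1 to 480 FPKM. Rplp0, which anchors that stalk, differed the other way, with 0.66 (SE 0.18), under the fold threshold. RefSeq lists 5 copies of Rplp2 in the rat, and how reads shared with them were counted is not given in the sources used here, so the level of Rplp2 is uncertain.

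Relative to the median of the 70 genes in the same rat, the 2 at 0 included, Rpl3 stood at 0.188 ± 0.01 for Sham, 0.331 ± 0.01 for MI and 0.303 ± 0.02 for DAPA (mean ± SD of 3 rats). Every ligated rat lay above every Sham rat on this measure too. In the comparison of DAPA with MI, limma called 0 of 68 ribosomal protein genes in either direction and 0 had an unadjusted p under 0.05. At that p 3.9% of all genes were lower and 4.59% higher. Rpl3l, at 1.71, was above 67 of the 68 and Rpl3, at -0.05, was below 62.

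In DAPA vs Sham limma called 0 of 68 in either direction. At an unadjusted p under 0.05, 1 was lower and 4 higher, beside 20.4% and 21.1% of all genes. Rpl3, at 0.65, was above 66 of the 68 and Rpl3l, at -0.06, had 34 on each side.

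**Figure D4:**
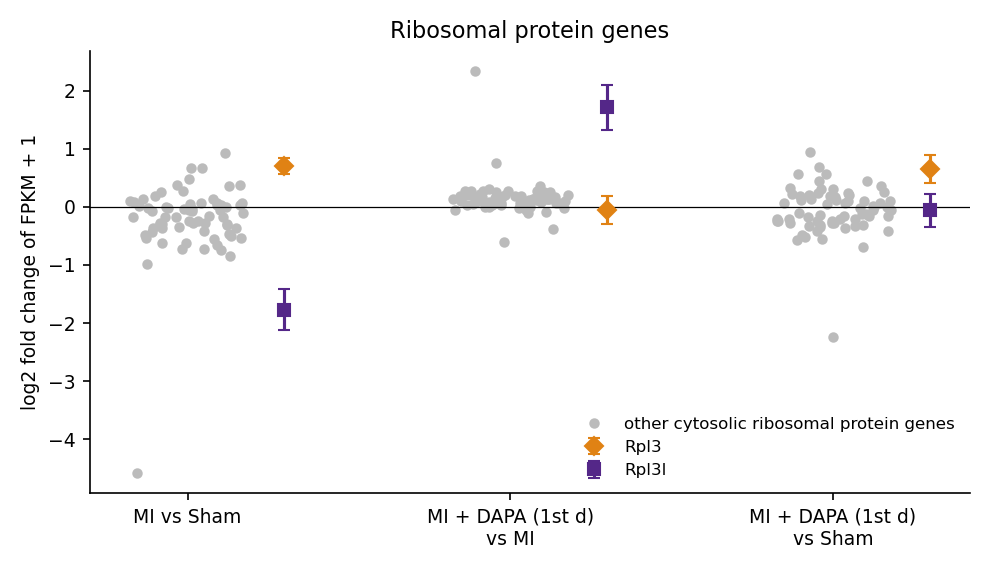
Log2 fold change of FPKM + 1 for 68 cytosolic ribosomal protein genes (grey points, spread sideways only to show them), Rpl3 (orange) and Rpl3l (purple, both with SE) in the 3 comparisons. In MI vs Sham most grey points lie between -1 and 1, Rpl3l at -1.77 and Rplp2 at -4.58.

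The place of Rpl3 among ribosomal protein genes by level depended on gene length. By mean FPKM, 63 of the 68 above 0 were above Rpl3 for Sham, 59 for MI and 62 for DAPA. The length behind its FPKM, 3506 bases, was exceeded by 2 of 68 ribosomal protein genes whose median was 682.5 bases. By mean reads, 39 of 68 were above Rpl3 for Sham, 11 for MI and 15 for DAPA. Rpl3l was near the low end either way, with 65 of the 68 above it by FPKM and 65 by reads in group Sham. Those below it by FPKM were Rpl8, Rpl13a and Rps6, at means of 18.2, 23.2 and 26.8 FPKM in group Sham. The list median was 717 FPKM there, so the levels of these genes, and ranks near the low end, are uncertain.

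Other ribosomal protein paralogs did not give a common picture. Of 6 tested in MI vs Sham, 1 was called lower and 0 higher. The one called was Rps4y2, a paralog of Rps4x, at 38.4, 41.8 and 73.7 FPKM in group Sham and 16.0, 7.46 and 19.2 in group MI, a difference of -1.81 (SE 0.38). Rpl22l1 and Rpl36al differed by 0.00 (SE 0.15) and -0.14 (SE 0.15). By sign, 4 of the 6 were higher in MI and 2 lower. At an unadjusted limma p under 0.05, 2 were higher and 1 lower, beside 24.5% and 24.4% of all genes. Rpl10l had a mean of 15.0 FPKM in group MI against 8.07 in group Sham, and Rpl7l1 37.7 against 24.6. In DAPA vs MI limma called 0 of 7 in either direction, with 0 at an unadjusted p under 0.05. In DAPA vs Sham, Rpl39l and Rpl10l were called higher, by 1.53 (SE 0.29) and 1.09 (SE 0.31), and Rps4y2 lower, by -1.20 (SE 0.34). Rpl39l was at 0 in 2 of the 3 Sham rats.

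Of the factors that act on the Rpl3 protein, Grwd1 is its chaperone on the way to the nucleus and Mettl18 methylates 1 of its histidines. Grwd1 stood at 4.99, 6.92 and 3.78 FPKM for Sham, 6.996, 6.36 and 5.45 for MI and 9.49, 8.11 and 6.37 for DAPA. It was not called in any comparison. Mettl18 stood at 7.38, 3.96 and 5.60 FPKM for Sham, 3.52, 3.02 and 2.95 for MI and 2.66, 2.07 and 2.98 for DAPA. Its differences of -0.64 (SE 0.22) and -0.87 (SE 0.24) from Sham were under the fold threshold. Every ligated rat was below every Sham rat, as the treated rats were in 23.3% of the 13359 genes tested in DAPA vs Sham.

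Among 27 ribosome assembly genes tested in MI vs Sham, 1 was called lower and 0 higher, with a median of 0.13; 8 had an unadjusted limma p under 0.05 with a higher level, beside 24.5% of all genes. The gene called was Dkc1, the pseudouridine synthase of H/ACA particles, at -1.10 (SE 0.14). Ncl, the nucleolar protein nucleolin, and Rrs1 differed by 0.76 (SE 0.14) and 0.84 (SE 0.19), under the fold threshold. Of 9 elongation factor genes 1 was called higher and 7 had an unadjusted p under 0.05 with a higher level, with a median of 0.56. The call was lost with adjusted limma p-values. Eef2, the translocase, differed by 0.81 (SE 0.19) and Eif5a by 0.65 (SE 0.16).

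The elongation factor called was Eef1a2, the form of eEF1A made in muscle and neurons. It stood at 18.3, 27.0 and 17.2 FPKM in group Sham and at 45.9, 30.6 and 123 in group MI, a difference of 1.41 (SE 0.48). In group DAPA it stood at 148, 130 and 79.1 FPKM, and it was called higher than in Sham, by 2.44 (SE 0.27). Limma called 0 of the 27 assembly and 0 of the 9 elongation genes in DAPA vs MI, with 0 at an unadjusted p under 0.05.

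Rpl3l and Rpl3 were last set beside pairs of muscle and other paralogs, as the difference in log2 FPKM ratio of the muscle form over the other form. Of 17 pairs listed, 15 had values. In MI vs Sham the Rpl3l pair stood at -2.58, and of the 14 other pairs 10 were negative and 4 positive, with a median of -1.56. Cox8b over Cox8a, subunits of cytochrome c oxidase, was lower at -3.69 (SE 0.62), and Pgam2 over Pgam1, phosphoglycerate mutases, was at -3.66 (SE 0.48). Tuba8 over Tuba1b was close to it, at -2.46 (SE 0.65). Fabp3 over Fabp5, fatty acid-binding proteins, was at 1.84 (SE 0.45) and Eef1a2 over Eef1a1 at 0.89 (SE 0.80). The Rpl3l shift was therefore within the range of the other pairs.

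In DAPA vs MI all 14 other pairs were positive, from 0.47 to 1.55 with a median of 1.09. The Rpl3l pair, at 1.87 (SE 0.52), was above each of them, but Pgam2 over Pgam1 at 1.55 (SE 0.48) and Tuba8 over Tuba1b at 1.53 (SE 0.65) were within its SE. In DAPA vs Sham the Rpl3l pair stood at -0.71 (SE 0.36), with 7 other pairs below and 7 above it.

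**Figure D5:**
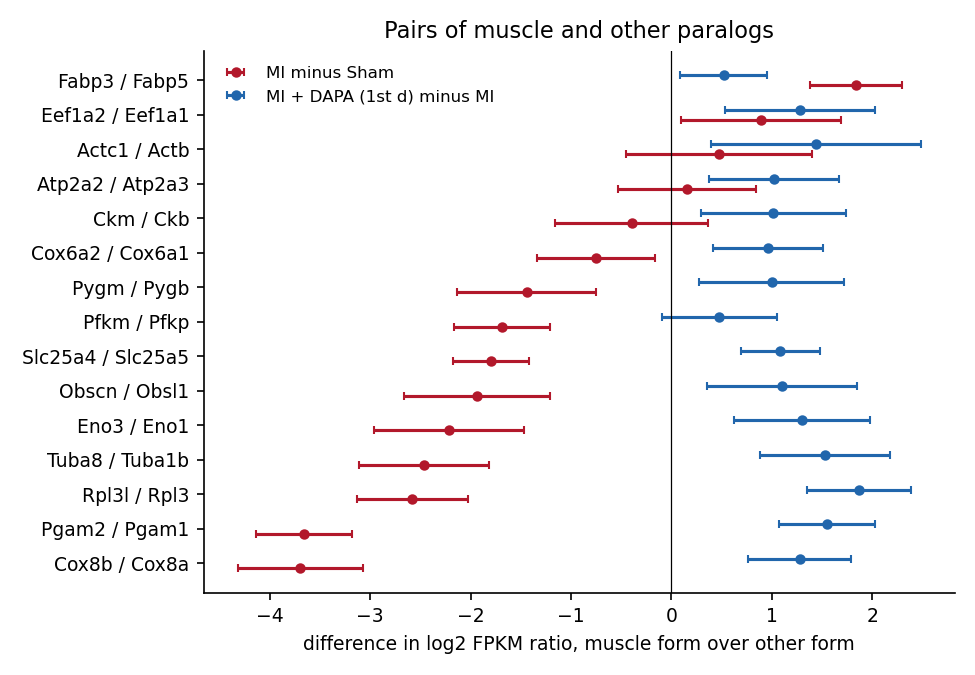
Difference in the log2 FPKM ratio of muscle form over other form, with SE over 3 rats a group, for 15 paralog pairs in MI minus Sham (red) and DAPA minus MI (blue). Rpl3l over Rpl3 lies at -2.58 and 1.87; all 15 blue points are above 0.

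The genes most like Rpl3l over the 9 rats, out of 10232 with at least 1 FPKM in every rat, were Acot13, Ndufs8, Ndufa12, Atp5f1e and Cox7c, with Pearson r from 0.96 to 0.98. All 5 encode mitochondrial proteins: a thioesterase, 2 subunits of complex I, 1 of ATP synthase and 1 of cytochrome c oxidase. Ndufs8 stood at 126 to 165 FPKM for Sham, 58.7 to 107 for MI and 122 to 201 for DAPA. After the group means were subtracted, the 5 most like it were Nnt, Shroom3, Perp, Micall1 and Hhatl, with r from 0.97 to 0.98. Nnt is the proton-pumping transhydrogenase of the mitochondrial inner membrane. The 2 lists share no gene.

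The genes most like Rpl3 were Rplp0, Npm1, Eif3l, Rpl6 and Eef1g, with r from 0.97 to 0.99, of which 2 are ribosomal proteins and Npm1 is a nucleolar protein of ribosome assembly. Rplp0 stood at 880 to 1031 FPKM for Sham, 1399 to 1569 for MI and 1146 to 1864 for DAPA. After the group means were subtracted they were Rps3, Gstt1, Rps15a, Atp6v1b2 and Rps15, with r from 0.98 to 1.00, and 3 of these are ribosomal proteins of the small subunit. DAPA replicate 3 was low in ribosomal protein genes at large, with a median of 537 FPKM against 819 and 784 in DAPA replicates 1 and 2. Rpl3 itself was at 153 FPKM there, against 270 and 233. How far these r rest on that library was not tested. In every case the points are 9 libraries, and with so few the highest of 10232 values of r is large by selection.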

How the data were processed

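RNA-seq was made by the authors from 9 samples of rat left ventricle (3 per group, day 28) with poly-A selected libraries read as paired ends. The authors deposited FPKM values for 35843 genes; the submitters' processing notes list HISAT2 2.0.5, StringTie 1.3.3b, featureCounts 1.5.0-p3 and DESeq2 without their roles, and the build is not given in the sources used here. All 9 columns were used, so 0 were left out. What the paired part numbers in each sample title stand for is not stated.

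Reads were recovered from the FPKM steps: each of 18896 genes, those seen in 4 libraries or more, came out at whole reads within 0.02, and totals were 13601888 to 17212030. On simulated data 99.6% of the 5840 genes for which a length was found came back exactly. The denominator of the first library was given there, so the step that finds it was not tested. A floor of 3 reads a library was fixed as a reference for counting error only. The limma fits did not filter on it but on FPKM.

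Because FPKM are not counts, limma 3.58.1 in R 4.3.3 was run on log2(FPKM + 1) with trend, on the 2 groups compared, for genes of at least 1 FPKM in at least 3 rats; fold changes of low genes are understated. A call was an unadjusted p under 0.05 with an absolute log2 fold change over 1, after the study's rule. In a simulation of MI vs Sham, 94.8% of 192 genes changed 4-fold among 13667 were called. The simulated spread between rats was fixed and the changed genes were well read. That share therefore checks the code and does not carry over to genes with fewer reads or a wider spread. The p-values rest on the spread between these rats, with each gene's variance drawn by limma towards a trend over all genes. Differences of ratios are means of log2 values with their SE. Python 3.11.15, numpy 2.4.6, pandas 2.3.3 and matplotlib 3.10.9 were also used.

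The members and lists were chosen with earlier results of these data known, and the levels of the members carry no p. Genes were named by rule: Rpl3, Rpl3l, Tnnt2, Col1a1, the Rpl3 factors, the paralogs and the pairs. The 5 genes most like each member on each of 2 measures were added. Of every other list at most 3 were named, those with the smallest limma p in MI vs Sham. Pvalb, Myh1, Adipoq, Plin1, Cidec, Rpl8, Rpl13a, Rps6, Rpl10a and Rpl23a were named after their values were seen. So were the genes called in lists for comparisons other than MI vs Sham. Of the list symbols, 4 had more than 1 row and the row with the highest mean was used. Replicate numbers did not pair the rats. Alternatives were a pseudocount of 0.1, no filter, 2 other library scalings (1 of them, reads outside the 13 mitochondrial protein-coding genes, chosen after seeing the data), all 9 rats in 1 fit, a replicate block, each rat left out and adjusted p-values.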

Additional observations from a re-analysis of the deposited data

How the results depend on the processing

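Of 303 alternative values for 27 results, 243 stayed within the spread between rats or within 1.5 times the count and 60 moved. Scaling to all recovered reads moved the most, and with it Rpl3l in DAPA vs Sham changed sign and the balance of cardiomyocyte and ribosomal protein calls in MI vs Sham turned to higher. In MI vs Sham it gave Rpl3l -0.72, Rpl3 1.81, 32 ribosomal protein genes called higher, 3 cardiomyocyte genes lower and 7 higher, and 290 genes lower and 6098 higher of all. In DAPA vs Sham it gave Rpl3l 0.80, Rpl3 1.53, 20 ribosomal protein genes higher, 0 cardiomyocyte genes lower and 17 higher, and 233 genes lower and 4433 higher. In DAPA vs MI it gave 296 genes lower and 63 higher. It shifts the median of all genes by 0.92, 0.74 and -0.21 in these comparisons. Scaling to reads outside the mitochondrial protein-coding genes left Rpl3l at -1.83 in MI vs Sham and 1.70 in DAPA vs MI.

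In DAPA vs MI, where 147 genes were called lower and 126 higher, a pseudocount of 0.1 called 224 lower, and adjusted p-values called 0 lower and 0 higher. Cardiomyocyte genes called higher there were 4, but 1 with no filter, 17 with all 9 rats in 1 fit and 0 with adjusted p-values. Cardiomyocyte genes called lower in DAPA vs Sham were 2, but 1 with no filter, 0 with all 9 rats in 1 fit and 1 with adjusted p-values. The replicate numbers did not pair the rats: the mean correlation of same-numbered rats was 0.02, -0.18 and 0.10 in the 3 comparisons, and 2, 1 and 3 of 6 rats correlated best with their own number. With the replicate block, 71 genes of all, 1 ribosomal protein gene and 1 cardiomyocyte gene were called higher in DAPA vs MI, and the block moved no other count by over 1.5 times.

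With each rat left out in turn, Rpl3l ranged from -2.16 to -1.55 in MI vs Sham, 1.46 to 2.11 in DAPA vs MI and -0.31 to 0.19 in DAPA vs Sham. Rpl3 ranged from 0.63 to 0.77, -0.22 to 0.19 and 0.48 to 0.89, and the log2 ratio of Rpl3 to Rpl3l from 2.30 to 3.05, -2.33 to -1.58 and 0.52 to 0.99. Ribosomal protein genes called lower ranged from 1 to 3, 0 to 1 and 0 to 1, and those called higher from 0 to 1 in all 3. Cardiomyocyte genes called lower ranged from 4 to 8 (8 without MI replicate 3), 0 to 0 and 0 to 4 (4 without treated replicate 2), and those called higher from 0 to 2, 0 to 22 and 6 to 13. The 22 came without MI replicate 3, and 0 without MI replicate 2 or treated replicate 1 or 2. All genes called lower ranged from 1111 to 1551, 73 to 238 and 900 to 1225, and those called higher from 1303 to 1753, 38 to 408 and 1057 to 1400. For the treated comparison with MI the lowest counts came without MI replicate 2, and 408 without MI replicate 3 and 238 without MI replicate 1. Depth limits Rpl3l most in MI replicate 2, where it rests on 179 reads.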
